A study of Mus musculus with 6 samples.

Results

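The actin cytoskeleton, SRF and YAP target genes were followed as a group of 45 genes, chosen as the rows of the deposited count table whose symbol is an actin, a tropomyosin, a myosin II subunit, another protein of the actin filament system, or a member or target of the SRF and Hippo pathways. They are 45 of the 22116 named genes in the table, and 43 of them passed the filter on low counts that left 12288 genes for testing. The counts come from RNA-seq of 4T1 cells, an established mouse mammary carcinoma line used as a model of triple-negative breast cancer. Cultures received either DMSO, the vehicle, or 10 µM P3FI-90, an inhibitor of the histone H3 lysine 9 demethylase KDM3B, for 24 h. Each group has 3 libraries. The comparison asks how the transcripts of this group differ between DMSO- and P3FI-90-treated cells. Both groups are the same line in culture, at 1 dose and 1 time, and no other genotype or agent was compared. The labels do not say whether the 3 libraries of a group came from separate cultures, so p-values measure only the spread between these libraries, which may be technical.

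Actin cycles between free monomers and filaments. Cofilin severs old filaments, profilin and the thymosins bind monomers, the Arp2/3 complex starts branches, and tropomyosins, α-actinins, filamins and non-muscle myosin II order filaments into stress fibers. The monomer pool also controls transcription: the cofactors MRTF-A and MRTF-B bind free actin, and once released they join serum response factor (SRF) at CArG boxes in the promoters of many cytoskeletal genes, the actins among them. Tension on filaments likewise acts on YAP and TAZ, which the Hippo kinases LATS1 and LATS2 keep out of the nucleus and which otherwise bind TEAD factors to switch on genes such as Ccn1, Ccn2 and Ankrd1. In mammary carcinoma cells these pathways are known for their part in shape, migration and growth.

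Promoter sequences were looked up first, because SRF and TEAD factors read short motifs. The RefSeq promoter table (GRCm38.p6) held 40 of the 45 genes, with 50 start sites. Actb, Tagln, Tead1, Tead4 and Ccn2 had no entry. The 250 bases before each start were searched on both strands for the CArG box, to which SRF binds, and for GGAATG, the core motif of TEAD factors. A CArG box stood in this window in 5 of the 40 genes (12.5%), against 1.62% of all 27025 genes in the table. GGAATG stood in 16 of the 40 (40.0%), against 14.4% of all genes, and in 5 of the 5 YAP/TEAD target genes that had an entry. The other 11 genes with GGAATG were Acta2, Actn4, Arpc2, Flna, Flnc, Mrtfb, Pfn1, Tagln2, Tpm1, Wwtr1 and Yap1. Known SRF and YAP/TEAD targets were among the genes chosen, so higher shares than over all genes can follow from that choice. The difference was not tested. A match is a description of the letters and not a measured binding site, and its absence says only that these letters are not in this window.

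The 5 stretches with a CArG box are shown because they belong to an actin, a calponin, 2 myosin light chains and SRF itself. Each is printed on the strand of its gene, 5′ to 3′, with the CArG box in capitals. They lie in GRCm38.p6 at chr11:120348551-120348610 (minus strand) for Actg1, chr17:46556190-46556269 (minus strand) for Srf, chr10:79988519-79988578 (plus strand) for Cnn2, chr10:128493025-128493084 (minus strand) for Myl6 and chr2:156775278-156775337 (plus strand) for Myl9. The capitals begin 90 bases before the start of Actg1, 56 before that of Cnn2, 50 before that of Myl6 and 161 before that of Myl9. Srf holds 2 boxes, which begin 82 and 62 bases before its start.
Actg1: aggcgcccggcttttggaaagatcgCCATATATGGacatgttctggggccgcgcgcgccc
Srf: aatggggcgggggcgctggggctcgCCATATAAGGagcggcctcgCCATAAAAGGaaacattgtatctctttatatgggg
Cnn2: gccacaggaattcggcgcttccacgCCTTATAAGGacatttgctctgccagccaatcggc
Myl6: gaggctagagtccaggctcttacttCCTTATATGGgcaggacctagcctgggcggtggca
Myl9: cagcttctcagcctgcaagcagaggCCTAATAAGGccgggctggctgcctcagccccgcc

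The stretches of the 5 YAP/TEAD target genes follow, with GGAATG or its reverse complement in capitals. Their positions in GRCm38.p6 are chr19:36119937-36120079 (minus strand) for Ankrd1, chr3:145650058-145650113 (minus strand) for Ccn1, chr9:102717714-102717769 (plus strand) for Amotl2, chr14:54577795-54577872 (minus strand) for Ajuba and chr7:25788936-25788983 (minus strand) for Axl. Ankrd1 and Ajuba each hold 2 matches and the others 1.
Ankrd1: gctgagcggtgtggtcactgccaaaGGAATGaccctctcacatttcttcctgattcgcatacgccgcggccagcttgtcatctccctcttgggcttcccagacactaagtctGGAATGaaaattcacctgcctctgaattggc
Ccn1: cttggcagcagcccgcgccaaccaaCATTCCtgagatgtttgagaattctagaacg
Amotl2: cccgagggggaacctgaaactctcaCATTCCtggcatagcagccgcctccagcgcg
Ajuba: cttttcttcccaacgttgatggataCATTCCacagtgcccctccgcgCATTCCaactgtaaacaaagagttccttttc
Axl: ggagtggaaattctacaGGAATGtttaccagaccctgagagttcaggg

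P3FI-90-treated cells held lower counts of most of these genes. Of the 43 tested, 31 were called lower and 7 higher by edgeR's quasi-likelihood test at an adjusted p under 0.05, and 5 were not called. The called share was 88.4%, beside 79.3% of all genes tested, of which 39.4% were lower and 39.9% higher. The median log2 fold change was -0.56 over the 43 genes and 0.013 over all genes tested. A fall of more than 1 on the log2 scale was seen for 14 of the 43 genes, against 10.6% of all genes. The 3 P3FI-90 libraries lay entirely below the 3 DMSO libraries for 31 genes and entirely above them for 7, where 81.2% of all genes showed groups that do not overlap. The lower genes included both cytoplasmic actins, all 4 tropomyosins, all 7 genes of monomer and filament turnover and 5 of the 6 YAP/TEAD targets. The 7 higher genes were Tagln, Srf, Wwtr1, Tead1, Lats1, Lats2 and Amotl2. Acta2, Actn1, Myh9, Mrtfa and Mrtfb were not called, and Myl9 and Cnn1 had too few counts to test.

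**Figure D1:**
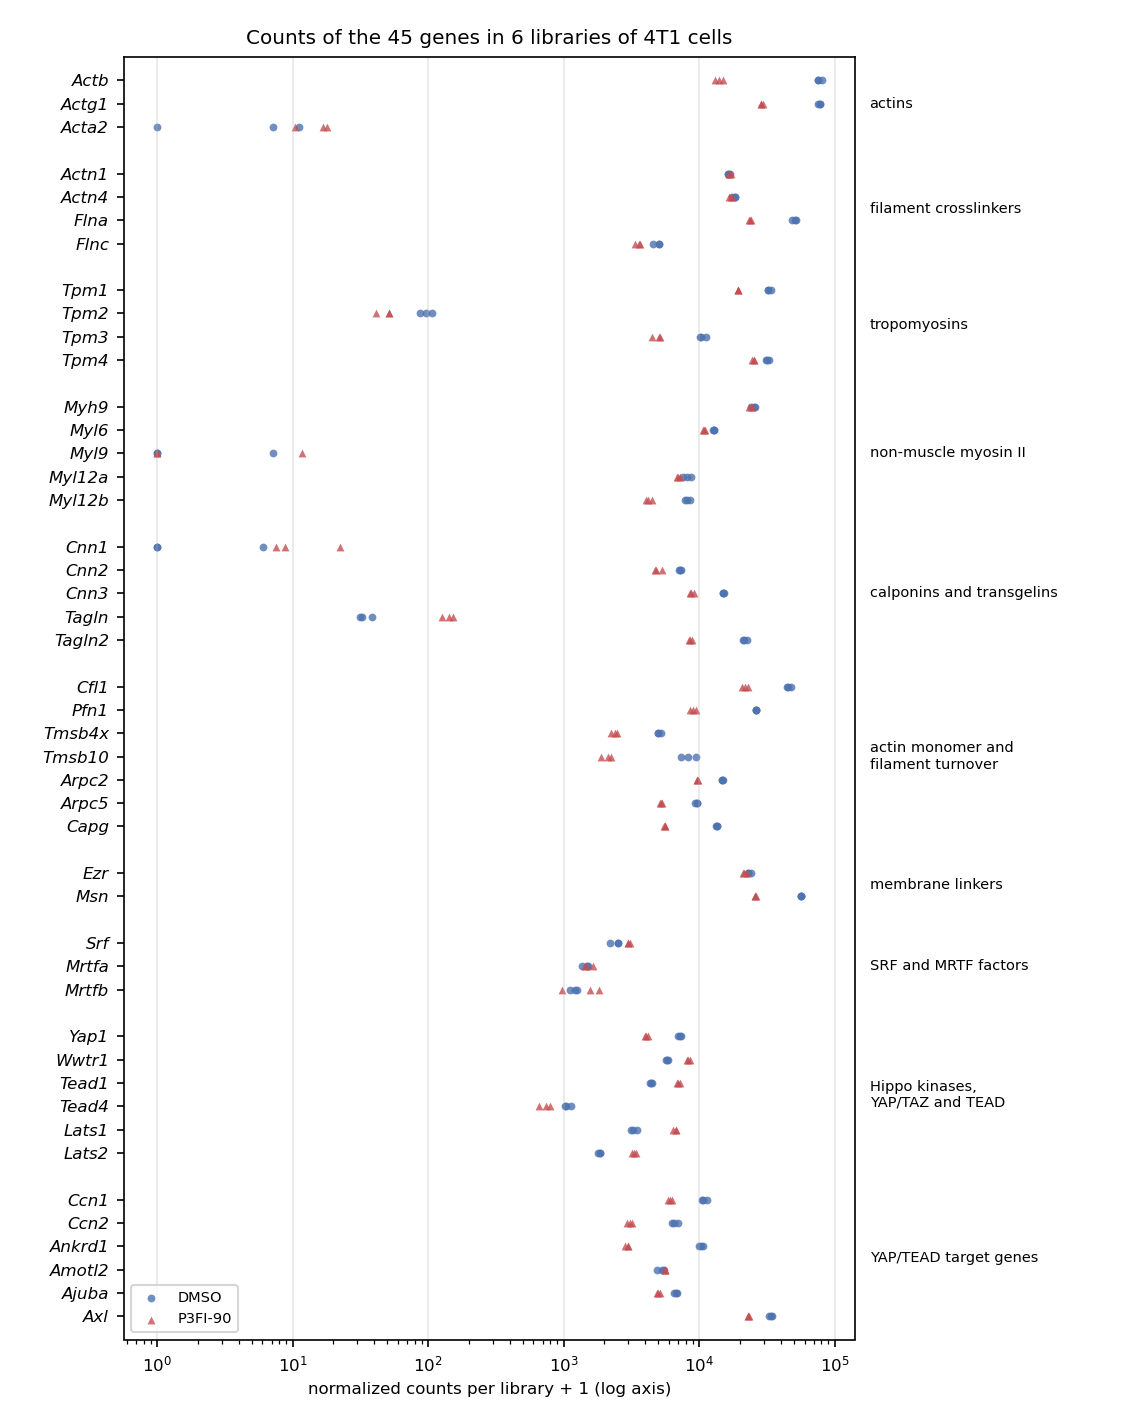
Normalized counts (counts divided by relative effective library size, plus 1, log axis) of the 45 genes in each of the 3 DMSO libraries (circles) and 3 P3FI-90 libraries (triangles), grouped by role. The groups separate for 38 of the 43 tested genes, with 31 lower and 7 higher after P3FI-90. They also separate for 81.2% of all 12288 genes tested.

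Depth was similar in the 6 libraries, with 31327094 to 37395732 counts on named genes. Rows without a gene name held 0.483% to 0.556% of the counts and were left out. The TMM factors were 0.927 to 0.930 in the DMSO libraries and 1.08 in the P3FI-90 libraries. Scaling by total counts alone therefore raised log2 fold changes by a median of 0.21, and under it 27 of the 43 genes were called lower and 13 higher. Of all calls 49.7% were lower, and 37.1% under that scaling. Direction and call of the 43 genes were the same under both scalings except where stated below. Between libraries of a group the spread was small: the median coefficient of variation was 2.70% in the DMSO group and 2.80% in the P3FI-90 group over the 42 tested genes other than Acta2. Of the 10 epithelial markers checked, 9 had at least 1072 counts in every library and Krt5 was at 0 in every library, while Cdh5, Myocd and Adgre1, markers of endothelium, smooth muscle and macrophages, had at most 5 counts in any library. Other markers of these lists were called higher from low counts: the macrophage receptor Csf1r went from between 27 and 52 to between 114 and 147 counts, the smooth muscle gene Synpo2 from between 4 and 13 to between 36 and 58, and the endothelial Pecam1 from at most 13 to between 17 and 27. Cd68, a macrophage marker with 275 to 403 counts, was not called. The summed epithelial markers ranged from 163626 to 172722 normalized counts in the DMSO libraries and from 69435 to 72791 in the P3FI-90 libraries, and 9 of 9 tested were lower. The summed smooth muscle markers ranged from 6348 to 6873 and from 9425 to 9815, nearly all of it Smtn, with Myocd at 0. For fibroblast markers the sums were 1565 to 1656 and 1082 to 1189, for endothelium 0 to 13.3 and 21.6 to 35.3, and for leukocytes 396 to 496 and 405 to 512. The part of these shifts in the results was not tested. Kdm3b itself went from 2851 ± 67.4 to 3109 ± 55.7 normalized counts (log2 fold change 0.13 ± 0.043, adjusted p = 0.0169), which does not measure the activity of the inhibited enzyme.

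Both cytoplasmic actins fell. Actb, which encodes β-actin, had 80394, 74791 and 75989 normalized counts in the DMSO libraries and 14133, 15104 and 13183 in the P3FI-90 libraries. Every P3FI-90 library held less than any DMSO library, and the mean was 18.4% of the DMSO mean (log2 fold change -2.45 ± 0.045 (SE), adjusted p = 1.24e-14). Its share of all counts went from between 0.198% and 0.212% to between 0.0405% and 0.0464%. Actg1, which encodes γ-actin, had 77395, 75205 and 77962 normalized counts in the DMSO libraries and 28829, 28809 and 29412 in the P3FI-90 libraries, to 37.8% of the DMSO level (log2 fold change -1.41 ± 0.026 (SE), adjusted p = 1.20e-14). The Actg1 groups did not overlap either. Levels were also taken as CPM per kilobase of the union of annotated exons, which adjusts for length but depends on which transcripts are annotated. On that scale Actb and Actg1 were at 820.3 and 825 in DMSO cells and at 151 and 311 in P3FI-90-treated cells. The log2 ratio of Actb to Actg1 within a library, which does not depend on scaling, was 0.055, -0.0080 and -0.037 in the DMSO libraries and -1.03, -0.93 and -1.16 in the P3FI-90 libraries, so that the groups did not overlap (exact permutation p = 0.1, the smallest possible). Acta2, the smooth muscle α-actin and a classical SRF target, was near its detection limit, with 10, 0 and 6 counts in the DMSO libraries and 10, 19 and 16 in the P3FI-90 libraries. The count of 0 in DMSO replicate 2 allows a share of up to 9.58e-06% of its 31327094 counts, as 3 counts would give. Acta2 was not called (log2 fold change 1.30, 95% interval -0.25 to 2.85, adjusted p = 0.113), and leaving out 1 library at a time moved its log2 fold change between 0.78 and 2.06. Under limma-voom it was called higher (log2 fold change 1.93, adjusted p = 0.0447). Of the 50-base windows of Actg1 and Actb transcripts, 37.4% and 9.12% also occur in other annotated genes, so part of their reads could have been assigned elsewhere.

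**Figure D2:**
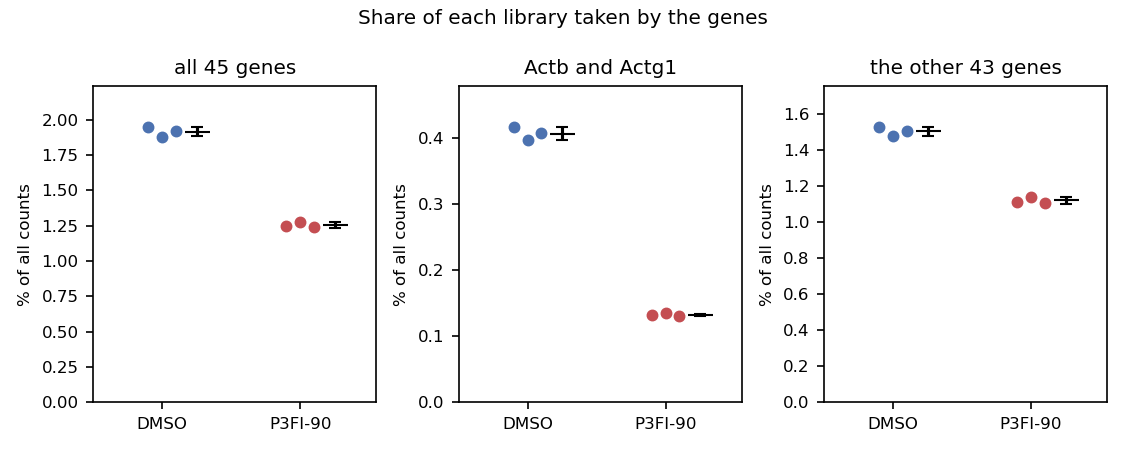
Share of all counts of a library (percent, axes from 0) held by all 45 genes, by Actb and Actg1 and by the other 43 genes. Points are libraries and the bar is the mean with the SD (n = 3). The 45 genes held 1.88% to 1.95% in DMSO and 1.24% to 1.28% in P3FI-90 libraries, and Actb with Actg1 0.398% to 0.417% and 0.131% to 0.135%.

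Summed over the 45 genes, the normalized counts averaged 722742 in the DMSO group and 408381 in the P3FI-90 group. Actb and Actg1 made up 35.2% of that fall. The other 43 genes together also went down, from 1.48% to 1.53% of all counts to 1.11% to 1.14%. With no absolute measure such as cell number or spike-in RNA used here, these are shares of the sequenced RNA and not amounts per cell. Among the 43 tested genes, those with a higher level per kilobase in DMSO cells had lower fold changes (Spearman correlation -0.66), and those with a longer transcript higher ones (Spearman correlation 0.54). Over 12263 genes of the whole table these correlations were -0.37 and 0.23. All points share the same 6 libraries and the DMSO counts enter both the level and the fold change, so these values are a description. The 43 genes had a median level of 84.3 against 7.43 in DMSO cells and a median longest transcript of 2490 bases against 3384, the second value of each pair being over all genes tested. After a trend in transcript length and GC was removed, 30 genes were called lower and 7 higher.

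The filament crosslinkers did not move together. Flna, the large filamin that joins filaments into networks, was lower in every P3FI-90 library, with 51779, 48402 and 51396 normalized counts in the DMSO libraries and 23411, 24172 and 23611 in the P3FI-90 libraries (log2 fold change -1.09 ± 0.031 (SE), adjusted p = 7.25e-13). Flnc, the muscle-type filamin, went from 4884 ± 288 to 3535 ± 148 normalized counts (log2 fold change -0.47 ± 0.048 (SE), adjusted p = 5.85e-07), and the ratio of Flna to Flnc fell by 0.62 on the log2 scale. Both α-actinins of non-muscle cells stayed close to their DMSO levels. Actn1 had 16909, 16302 and 16380.5 normalized counts in the DMSO libraries and 16664, 17339 and 16498 in the P3FI-90 libraries, and these ranges overlap (log2 fold change 0.026, 95% interval -0.042 to 0.095, adjusted p = 0.459). For Actn4 the values were 18378, 17643 and 18307 normalized counts in the DMSO libraries and 17085, 17636 and 16643 in the P3FI-90 libraries. The Actn4 groups lie side by side without overlap, and the call was marginal (log2 fold change -0.081 ± 0.032 (SE), adjusted p = 0.0338). It was lost with a replicate block (adjusted p = 0.0678), without DMSO replicate 1 or 3 or without P3FI-90 replicate 1 or 3 (adjusted p = 0.0730 to 0.116), with DESeq2 size factors (adjusted p = 0.0531), with a minimum of 10 counts in every library (adjusted p = 0.0850) and after removal of the length and GC trend (adjusted p = 0.655). Scaled by total counts, Actn4 was higher (log2 fold change 0.13) and so was Actn1 (0.24, adjusted p = 6.39e-06).

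All 4 tropomyosins, which wrap filaments and set which proteins may bind them, were lower. Tpm3 fell most, with 11208, 10134 and 10274 normalized counts in the DMSO libraries and 5109, 5083 and 4470.0 in the P3FI-90 libraries (log2 fold change -1.11 ± 0.053 (SE), adjusted p = 1.38e-10). Tpm4 fell least, with 31789, 32574 and 30949.5 normalized counts in the DMSO libraries and 24765, 25248 and 25434 in the P3FI-90 libraries (log2 fold change -0.34 ± 0.029 (SE), adjusted p = 7.81e-08). For both genes the groups were separate. Tpm1 went from 32740.2 ± 870.1 to 19481 ± 44.4 normalized counts (log2 fold change -0.75 ± 0.029 (SE), adjusted p = 1.44e-11) and the scarce Tpm2 from 95.3 ± 9.81 to 47.2 ± 6.02 (log2 fold change -1.01 ± 0.24 (SE), adjusted p = 0.00144). Of the windows of Tpm3, 23.2% also occur in Tpm3-rs7, a related gene, whose counts exceeded those of Tpm3 and went from 22268 ± 418 to 11159 ± 329 normalized counts (log2 fold change -0.997 ± 0.032 (SE), adjusted p = 2.74e-12). The division of reads between Tpm3 and Tpm3-rs7 is thus uncertain, and both values fell by a similar amount. Per kilobase, Tpm4 held 67.9% ± 0.920 (SD, n = 3) of the signal of the 4 tropomyosins in DMSO cells and 74.9% ± 0.535 in P3FI-90-treated cells. Tpm1 went from 23.8% ± 0.518 to 19.7% ± 0.173. These shares rest on exon unions of 2203 bases for Tpm4, 6485 for Tpm1 and 6085 for Tpm3. The longest transcripts have 2128, 2890 and 2374 bases, and Tpm3-rs7 is left out, so the size of the shares depends on these choices. In DMSO cells Tpm1 and Tpm4 averaged 32740.2 and 31771 normalized counts.

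The genes of non-muscle myosin II, the motor of stress fibers, that belong to this group showed small changes apart from 1 light chain. Outside the group, the heavy chains Myh14 (log2 fold change -1.76 ± 0.10 (SE), adjusted p = 8.67e-10) and Myh10 (-0.51 ± 0.034, adjusted p = 5.66e-09) were lower. So was the light chain Myl6b (-0.75 ± 0.14, adjusted p = 1.68e-04). The heavy chain Myh9 had 25764, 24184 and 25393 normalized counts in the DMSO libraries and 23336, 24662 and 24179 in the P3FI-90 libraries, with overlapping groups (log2 fold change -0.062, 95% interval -0.13 to 0.0089, adjusted p = 0.0985). It was called lower without DMSO replicate 2 (log2 fold change -0.094) or P3FI-90 replicate 2 (-0.083), with upper quartile scaling (-0.10) and after removal of the length and GC trend (-0.26, adjusted p = 4.64e-06), and called higher with total counts (0.15, adjusted p = 6.16e-04). Among the light chains, Myl12b fell most, with 8189, 7805 and 8509 normalized counts in the DMSO libraries and 4194, 4472 and 4066 in the P3FI-90 libraries (log2 fold change -0.94 ± 0.044 (SE), adjusted p = 1.03e-10). Its near-identical partner Myl12a fell least, with 7561, 8115 and 8657 normalized counts in the DMSO libraries and 6947, 7198 and 6816 in the P3FI-90 libraries (log2 fold change -0.22 ± 0.046 (SE), adjusted p = 6.25e-04). The essential light chain Myl6 went from 12781 ± 176 to 10900.1 ± 124 normalized counts (log2 fold change -0.23 ± 0.031 (SE), adjusted p = 8.65e-06). Neither Myl6 nor Myl12a was called with total counts (log2 fold changes -0.015 and -0.00091). Myl12a and Myl12b share 16.4% and 25.4% of their windows with other genes and overlap the gene Gm49909 on the same strand, which went from 17754 ± 1179 to 13147 ± 200.1 normalized counts (log2 fold change -0.43 ± 0.042 (SE), adjusted p = 2.91e-07), so reads could be split among these 3 genes. Myl9, the smooth muscle light chain, was not tested, with 0, 0 and 6 counts in the DMSO libraries and 0, 12 and 0 in the P3FI-90 libraries. It was at 0 in 4 of 6 libraries, where 3 counts would be a share of 8.02e-06% to 9.58e-06%.

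Of the calponins and transgelins, small proteins that bind along filaments, the abundant non-muscle forms fell and the scarce smooth muscle form Tagln rose. Tagln2 had 22483, 21163 and 21622 normalized counts in the DMSO libraries and 8476, 8843 and 8498 in the P3FI-90 libraries (log2 fold change -1.34 ± 0.034 (SE), adjusted p = 2.46e-13). Tagln, also called SM22α and another classical SRF target, had 30, 26 and 37 counts in the DMSO libraries and 134, 158 and 155 in the P3FI-90 libraries. The groups did not overlap, and the mean rose to 4.20-fold (log2 fold change 2.07 ± 0.23 (SE), adjusted p = 1.40e-06). Even so, Tagln made up 1.67% ± 0.156 of the per-kilobase signal of the pair after P3FI-90, against 0.160% ± 0.0211 in DMSO cells (SD, n = 3). Tagln overlaps Pcsk7 on the opposite strand, which went from 882 ± 48.8 to 2315 ± 73.3 normalized counts (log2 fold change 1.39 ± 0.057 (SE), adjusted p = 2.55e-11). Whether the counting used strand is not given in the sources used here, so reads of these genes cannot be told apart. Cnn3 went from 15028 ± 138 to 8796 ± 365 (log2 fold change -0.77 ± 0.035 (SE), adjusted p = 8.75e-11) and Cnn2 from 7235 ± 139 to 4967 ± 312 normalized counts (log2 fold change -0.54 ± 0.044 (SE), adjusted p = 3.99e-08). Cnn1, the smooth muscle calponin, was too low to test, with 5, 0 and 0 counts in the DMSO libraries and 7, 24 and 8 in the P3FI-90 libraries.

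Over all genes tested, 39.4% were called lower, and 10.6% by more than 1 on the log2 scale. Genes of monomer and filament turnover were called lower in 7 of 7 cases, 5 of them by more than 1. The monomer-sequestering thymosin Tmsb10 fell most, with 9532, 7397 and 8239 normalized counts in the DMSO libraries and 2141, 2225 and 1885 in the P3FI-90 libraries (log2 fold change -2.01 ± 0.080 (SE), adjusted p = 2.12e-11). Arpc2, a subunit of the branch-forming Arp2/3 complex, fell least, with 14747, 14946 and 14746 normalized counts in the DMSO libraries and 9895, 9655 and 9600.2 in the P3FI-90 libraries (log2 fold change -0.61 ± 0.031 (SE), adjusted p = 2.38e-10). In both cases all P3FI-90 libraries were below all DMSO libraries. Pfn1, the profilin that feeds monomers to growing ends, went from 26380.1 ± 148 to 9041 ± 455 normalized counts (log2 fold change -1.54 ± 0.037 (SE), adjusted p = 1.34e-13). Capg, which caps filament ends, went from 13494 ± 96.4 to 5574 ± 85.4 (log2 fold change -1.28 ± 0.032 (SE), adjusted p = 2.01e-13). Cfl1, the cofilin that severs filaments, went from 45949 ± 1770.0 to 21782 ± 1222 (log2 fold change -1.08 ± 0.040 (SE), adjusted p = 1.00e-11). These abundant turnover genes thus fell to between 34.3% and 47.4% of their DMSO levels. Tmsb4x, the other thymosin, had a log2 fold change of -1.09 ± 0.045, and Arpc5, another Arp2/3 subunit, one of -0.87 ± 0.034. The thymosins drew level on the per-kilobase scale: Tmsb10 was 188 and Tmsb4x 106 CPM in DMSO cells, and 46.6 and 49.4 after P3FI-90. The last values do not differ beyond their spread on that scale, with SDs of 3.96 and 2.33. Other annotated genes share 27.0% of the windows of Tmsb10.

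The membrane linkers ezrin and moesin, which tie filaments to the plasma membrane, differed from each other. Msn had 56123, 56211 and 56197 normalized counts in the DMSO libraries and 26061, 26057 and 26423 in the P3FI-90 libraries (log2 fold change -1.10 ± 0.025 (SE), adjusted p = 7.73e-14). Ezr had 24061, 23045 and 23113 normalized counts in the DMSO libraries and 21576, 22584 and 21166 in the P3FI-90 libraries (log2 fold change -0.10 ± 0.033 (SE), adjusted p = 0.00945). Moesin was therefore at 46.6% of its DMSO level, and ezrin at 93.0%. The log2 ratio of Ezr to Msn was -1.22, -1.29 and -1.28 in the DMSO libraries and -0.27, -0.21 and -0.32 in the P3FI-90 libraries. Scaled by total counts, Ezr was called higher (log2 fold change 0.11, adjusted p = 5.91e-03), and after removal of the length and GC trend it was not called (-0.026, adjusted p = 0.476).

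**Figure D3:**
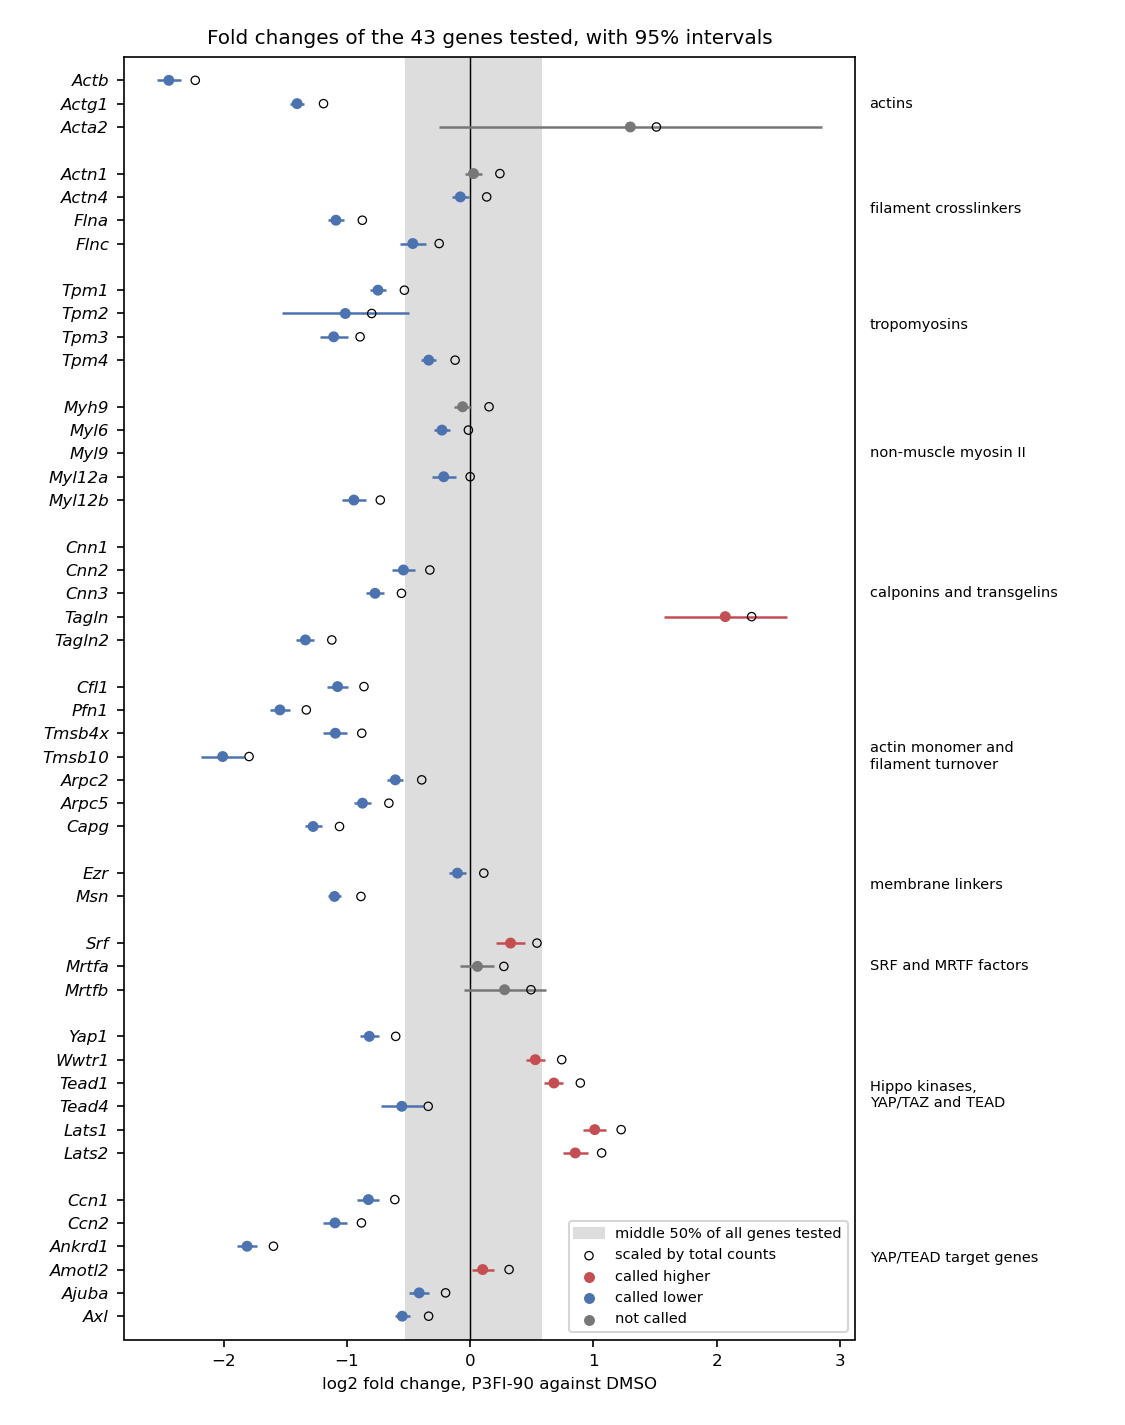
Log2 fold change of P3FI-90 against DMSO for the 43 tested genes, with the 95% interval from edgeR (3 libraries per group), grouped by role. Open circles give the value scaled by total counts, a median of 0.21 higher, and the grey band the middle 50% of all 12288 genes. Actb, Tmsb10 and Ankrd1 lie farthest to the left, and Tagln, Lats1 and Lats2 are the called genes farthest to the right.

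None of the genes for SRF and its MRTF cofactors was called lower. Srf rose modestly, with 2502, 2205 and 2529 normalized counts in the DMSO libraries and 3073, 3012 and 2999 in the P3FI-90 libraries (log2 fold change 0.33 ± 0.055 (SE), adjusted p = 8.18e-05), and all P3FI-90 libraries exceeded all DMSO libraries. Mrtfa had 1504, 1359 and 1494 normalized counts in the DMSO libraries and 1456, 1635 and 1448 in the P3FI-90 libraries (log2 fold change 0.058, 95% interval -0.079 to 0.20, adjusted p = 0.411). The Mrtfa groups overlapped. Mrtfb had 1121, 1247 and 1218 normalized counts in the DMSO libraries and 1553, 1810.0 and 979 in the P3FI-90 libraries. Here P3FI-90 replicate 3 lay below every DMSO library while the other 2 lay above, and Mrtfb was not called (log2 fold change 0.28, 95% interval -0.053 to 0.61, adjusted p = 0.112). Without that library the log2 fold change was 0.49 (adjusted p = 5.84e-05), which is a call. With total counts both cofactors were called higher (Mrtfa 0.27, adjusted p = 1.27e-03, and Mrtfb 0.49, adjusted p = 9.22e-03). After removal of the length and GC trend the log2 fold change of Mrtfb was -0.099, and it was not called. Mrtfa overlaps Sgsm3 on the opposite strand, which went from 969 ± 142 to 1135 ± 79.4 normalized counts (log2 fold change 0.22 ± 0.095 (SE), adjusted p = 0.0421). As the strandedness of the counting is not given, reads of Mrtfa and Sgsm3 cannot be told apart. Transcript levels do not measure how much SRF or MRTF protein was in the nucleus.

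The Hippo pathway genes split. Both LATS kinases, which phosphorylate and thereby restrain YAP and TAZ, were higher. Lats1 had 3139, 3275 and 3498 normalized counts in the DMSO libraries and 6470.4, 6779 and 6718 in the P3FI-90 libraries, and so rose to 2.01-fold (log2 fold change 1.01 ± 0.043 (SE), adjusted p = 3.84e-11). Lats2 rose from 1835 ± 31.7 to 3312 ± 119 normalized counts (log2 fold change 0.85 ± 0.048 (SE), adjusted p = 7.93e-10), although 41.2% of its windows also occur in Gm49361, an overlapping gene with 0 counts in every library. The coactivators went opposite ways. Yap1 had 7259.8, 7014 and 7398 normalized counts in the DMSO libraries and 4065, 4021 and 4198 in the P3FI-90 libraries, at 56.7% of the DMSO level (log2 fold change -0.82 ± 0.036 (SE), adjusted p = 6.07e-11). Wwtr1, which encodes TAZ, had 5658, 5894 and 5800.0 normalized counts in the DMSO libraries and 8305, 8154 and 8559 in the P3FI-90 libraries, at 144% (log2 fold change 0.53 ± 0.035 (SE), adjusted p = 4.58e-09). No Yap1 or Wwtr1 library overlapped between groups. Per kilobase, Yap1 made up 39.2% ± 0.996 (SD, n = 3) of the pair in DMSO cells and 20.2% ± 0.0637 after P3FI-90. This scale divides by the union of annotated exons, 9257 bases for Yap1 and 4779 for Wwtr1. The longest transcripts have 5282 and 4697 bases, so which gene has the larger share in DMSO cells depends on the length used. In normalized counts Yap1 was above Wwtr1 in every DMSO library. The DNA-binding partners of YAP and TAZ also diverged. Tead1 rose, with 4319, 4398 and 4465 normalized counts in the DMSO libraries and 7226, 7031 and 6847 in the P3FI-90 libraries (log2 fold change 0.68 ± 0.036 (SE), adjusted p = 3.64e-10), and Tead4 fell, with 1044, 1031 and 1133 normalized counts in the DMSO libraries and 656, 791 and 736 in the P3FI-90 libraries (log2 fold change -0.56 ± 0.079 (SE), adjusted p = 1.73e-05). Of the per-kilobase signal of Tead1 and Tead4, Tead1 held 52.2% ± 0.996 in DMSO cells and 71.95% ± 2.25 in P3FI-90-treated cells. Tead2 and Tead3, which are outside the group and not in that share, both fell (log2 fold changes -1.64 ± 0.060 and -0.70 ± 0.084 (SE), adjusted p = 8.76e-12 and 2.73e-06). After removal of the length and GC trend the log2 fold changes of Tead1, Lats1 and Wwtr1 were smaller, at 0.19, 0.63 and 0.34, and these genes were still called higher.

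Of the 6 YAP/TEAD target genes, 5 fell and 1 was slightly higher, where 39.4% of all genes tested were lower and 39.9% higher. The 12 other YAP/TEAD targets tested, described below, were divided, with 5 called higher and 4 lower. Ankrd1, a nuclear ankyrin-repeat protein widely used as a YAP readout, had 10064, 10374 and 10623 normalized counts in the DMSO libraries and 2999.9, 2995 and 2854 in the P3FI-90 libraries, at 28.5% of the DMSO level (log2 fold change -1.81 ± 0.038 (SE), adjusted p = 4.17e-14). Ccn2 and Ccn1, the secreted matricellular proteins CTGF and CYR61, went from 6599 ± 332 to 3084 ± 136 (log2 fold change -1.10 ± 0.045 (SE), adjusted p = 2.84e-11) and from 10819 ± 509 to 6101 ± 218 normalized counts (log2 fold change -0.83 ± 0.041 (SE), adjusted p = 2.12e-10). The receptor tyrosine kinase Axl went from 33812 ± 690.3 to 23059.5 ± 117 (log2 fold change -0.55 ± 0.027 (SE), adjusted p = 2.11e-10). Ajuba, a LIM protein that binds LATS kinases, went from 6666 ± 170.4 to 5002 ± 137 (log2 fold change -0.41 ± 0.036 (SE), adjusted p = 1.04e-07). These decreases ran from 24.98% for Ajuba to 71.5% for Ankrd1. Amotl2, an angiomotin that retains YAP in the cytoplasm and is itself a target, had 5479, 4911 and 5332 normalized counts in the DMSO libraries and 5616, 5617 and 5632 in the P3FI-90 libraries. The groups were just apart and it was called higher (log2 fold change 0.10 ± 0.041 (SE), adjusted p = 0.0376). That call was lost without DMSO replicate 2 or 3 or without any 1 of the P3FI-90 replicates (log2 fold change 0.051 to 0.11, adjusted p = 0.0673 to 0.219), with upper quartile scaling (adjusted p = 0.181) and without a filter on low counts (adjusted p = 0.0571).

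Ratios of related genes within each library do not depend on how libraries are scaled. Of 19 pairs fixed by family, 16 could be computed, and Acta2/Actb, Myl9/Myl6 and Cnn1/Cnn2 could not because of counts of 0. The groups did not overlap for 14 of the 16, each with p = 0.1 in the exact two-sided permutation test, the smallest p that 3 against 3 libraries allow, and 0.114 after Benjamini-Hochberg adjustment over the 16. No pair could therefore pass 0.05. Groups that do not overlap were also seen for 81.2% of all single genes tested, and the share among pairs of unrelated genes was not computed. The largest shifts, in log2 units, were 3.42 for Tagln/Tagln2, -1.35 for Yap1/Wwtr1, 1.24 for Tead1/Tead4 and -1.04 for Actb/Actg1. The Tagln/Tagln2 value rests on 26 to 37 Tagln counts in the DMSO libraries, and Tagln reads cannot be told apart from those of Pcsk7. Of the near-identical light chains, Myl12a gained on Myl12b by 0.73, and Cfl1 gained on Pfn1 by 0.47. The smallest shifts without overlap were 0.11 for Actn1/Actn4 and 0.16 for Lats1/Lats2. Tpm2/Tpm3 (0.093, exact p = 0.7) and Mrtfa/Mrtfb (-0.17, exact p = 0.5) overlapped.

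**Figure D4:**
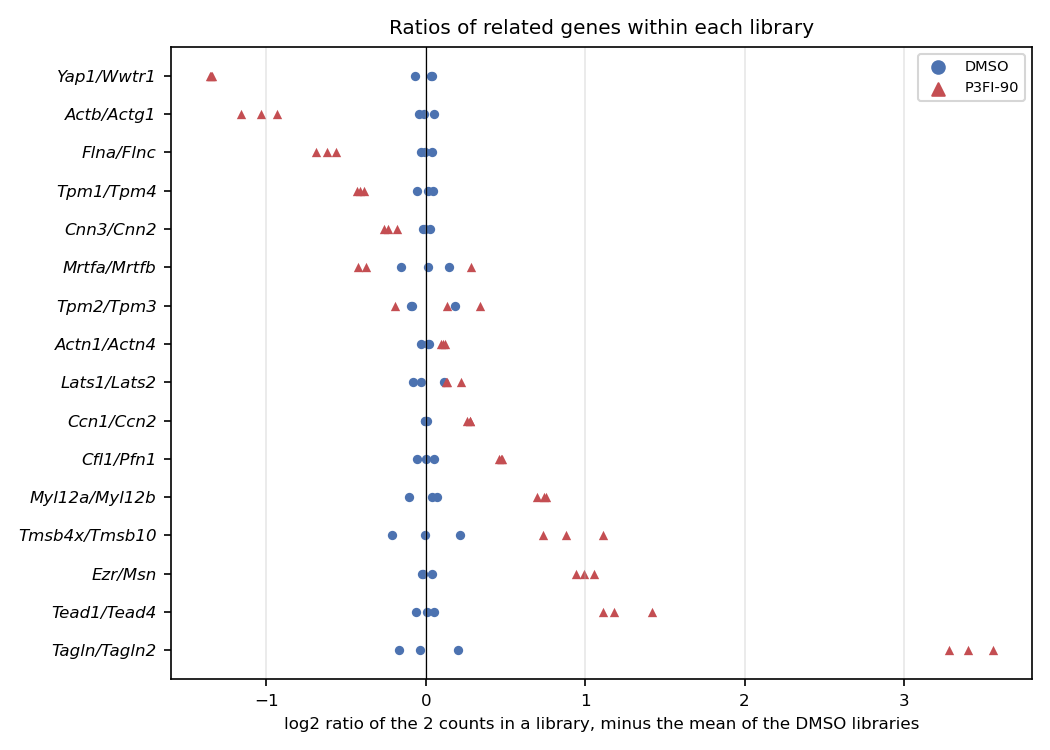
Log2 ratio of the counts of related genes in each of the 3 DMSO libraries (circles) and 3 P3FI-90 libraries (triangles), minus the mean of the DMSO libraries, for 16 pairs. Groups overlap for Tpm2/Tpm3 and Mrtfa/Mrtfb and are separate for the other 14.

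Other genes of the same pathways were read from 6 lists of 126 genes, of which 105 were tested, 54 called lower and 37 higher, with a median log2 fold change of -0.21. The called share was 86.7%, beside 79.3% of all genes tested (39.4% lower and 39.9% higher). Scaled by total counts, the balance turned, with 42 lower and 50 higher. Among single lists the called share was 95.7% for actin turnover and 87.5% for Arp2/3, WAVE and N-WASP. Each value in this paragraph is a log2 fold change with its SE, and the 3 genes named per list are those with the smallest p. Of 23 other actin turnover genes tested, 16 were lower and 6 higher, among the lower the filament-end cappers Capza1 (-0.89 ± 0.036, adjusted p = 2.09e-11) and Capzb (-0.73 ± 0.038, adjusted p = 3.45e-10) and the cofilin partner Wdr1 (-0.97 ± 0.036, adjusted p = 9.99e-12). Of 16 other genes of the Arp2/3, WAVE and N-WASP machinery, 10 were lower and 4 higher. The Arp2/3 subunit Arpc1b (-1.06 ± 0.036, adjusted p = 3.84e-12) and the WAVE subunit Cyfip1 (-1.17 ± 0.036, adjusted p = 1.61e-12) fell, and Wasl (1.601 ± 0.039, adjusted p = 1.71e-13), which encodes the Arp2/3 activator N-WASP, rose.

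Other crosslinkers, myosins and myosin regulators were called in all 19 genes tested, 11 lower and 8 higher, and 5 higher after removal of the length and GC trend. Over all genes tested the called share was 79.3%. It was 100% in this list, 81.2% for the further SRF genes, 73.7% for the Hippo genes and 75% for the YAP/TEAD targets. Fascin fell, Fscn1 (-1.30 ± 0.044, adjusted p = 3.79e-12), and the regulatory subunits of myosin phosphatase, Ppp1r12b (1.07 ± 0.035, adjusted p = 3.14e-12) and Ppp1r12a (0.81 ± 0.038, adjusted p = 1.06e-10), rose. Of 16 other SRF target and cofactor genes, 8 were lower and 5 higher, but 5 lower and 7 higher when scaled by total counts. The immediate early gene Egr1 (-1.89 ± 0.099, adjusted p = 3.52e-10) and the ternary complex factor Elk3 (-0.71 ± 0.039, adjusted p = 5.93e-10) fell, while smoothelin, Smtn (0.54 ± 0.037, adjusted p = 6.50e-09), rose. Of 19 other Hippo pathway genes, 9 were higher and 5 lower, and 14 and 4 under that scaling. The upstream kinases Map4k4 (0.83 ± 0.030, adjusted p = 8.10e-12) and Taok1 (0.84 ± 0.043, adjusted p = 3.09e-10) rose and Tead2 (-1.64 ± 0.060, adjusted p = 8.76e-12) fell. Other YAP/TEAD target genes were divided, with 5 higher and 4 lower of 12, and 8 and 3 when scaled by total counts. Ptpn14 (1.67 ± 0.042, adjusted p = 2.01e-13), a phosphatase that binds YAP, and Gadd45a (2.18 ± 0.083, adjusted p = 1.19e-11), a stress-response gene, rose, and the ectonucleotidase Nt5e (-0.997 ± 0.047, adjusted p = 1.12e-10) fell. The medians were between -0.42 and -0.29 for the 4 actin and SRF lists, 0.18 for the Hippo list and 0.024 for the further YAP/TEAD targets.

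**Figure D5:**
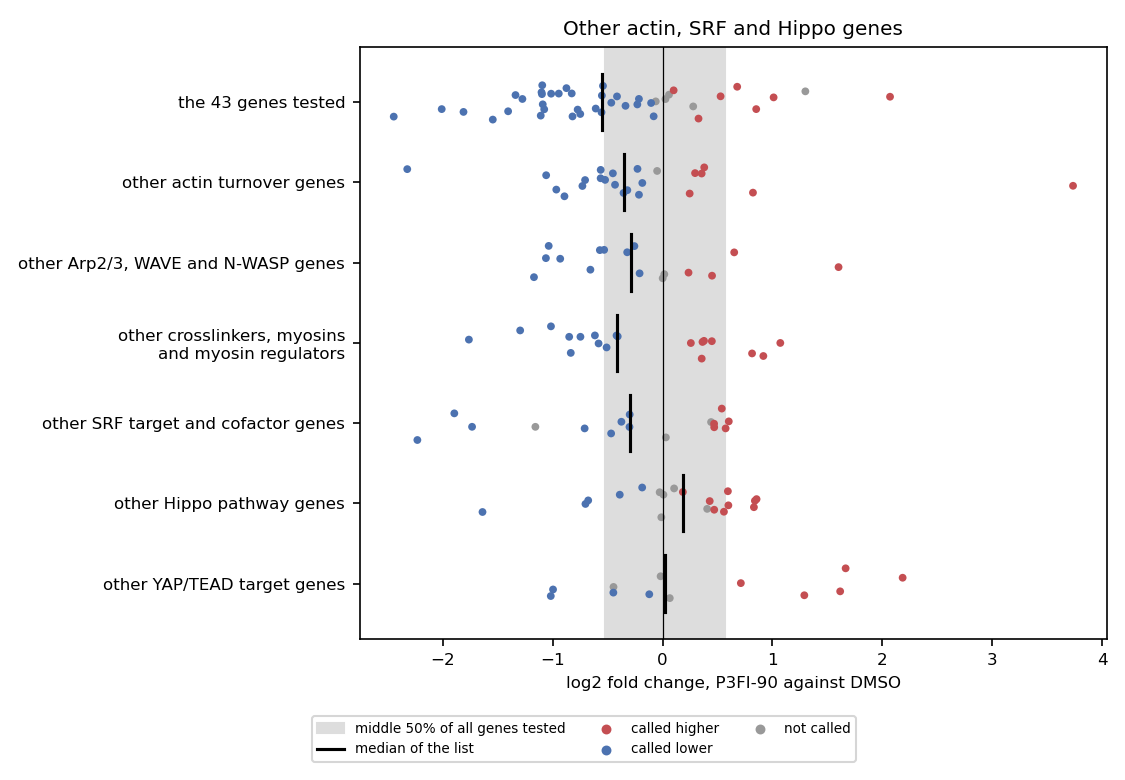
Log2 fold change of P3FI-90 against DMSO for the 43 tested genes and for the 105 tested genes of 6 related lists. Each point is 1 gene, coloured by its call, vertical position within a row is arbitrary, the bar is the median of the row and the grey band the middle 50% of all 12288 genes. The medians of the actin and SRF rows lie left of 0, that of the other Hippo pathway genes at 0.18, right of 0.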

How the data were processed

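Libraries were made from total RNA of 4T1 cells with an Illumina mRNA-Seq kit and sequenced on an Illumina NovaSeq instrument. The authors deposited whole-number read counts per gene, 1 column per library, with no normalization, and 0 columns of per-sample values were left unused. The submitters' processing notes name CASAVA, HISAT2, StringTie and the build GRCm39, without versions or roles. The annotation and the strandedness are not given in the sources used here. Rows of 285 assembled transcripts without a gene name were left out. The counts were filtered (filterByExpr), TMM-normalized and tested in edgeR 4.0.16 under R 4.3.3 (quasi-likelihood test, all 6 libraries, no covariate), with Benjamini-Hochberg adjustment over 12288 genes and a threshold of 0.05. Normalized counts are the counts divided by the effective size of the library relative to the mean of the 6 libraries, and the SE of a log2 fold change is its size divided by the square root of F. Intervals and limits for counts of 0 cover counting error only or the spread of these libraries, and both mates of a read pair may have been counted.

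Levels per kilobase are normalized CPM over the union exon length, and shared 50-base windows and overlapping genes are from GENCODE M21 (GRCm38). Promoters are from RefSeq, GRCm38.p6. As the files use another build, no coordinates of counted genes are given. The scripts were checked on simulated data first. The 45 genes, the lists and the tests were chosen with earlier results of these data known. In each role, values per library are given for the called genes with the highest and the lowest fold change and for genes not called. They are also given for the actins, SRF and MRTF factors, Yap1, Wwtr1, Tead1 and Tead4. The 3 genes with the smallest p are named per further list, and Myh10, Myh14, Myl6b and Tead3 are named beside their families. A further list set with these is not reported here. Alternatives were other scalings (DESeq2 size factors, total counts, upper quartile), other filters (none, or a minimum of 10 counts per library), the Wald test of DESeq2 1.42.0, limma 3.58.1 as limma-voom or on log2(CPM + 1), a replicate block, each library left out and a correction for length and GC (natural splines, 4 degrees of freedom). Ratios were also taken with 0.5 counts added.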

Additional observations from a re-analysis of the deposited data

How the results depend on the processing

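Of the 43 genes tested, 33 kept their direction and their side of the threshold under all of the 16 alternatives that gave a value, and 10 did not (Acta2, Actn1, Actn4, Myh9, Myl6, Myl12a, Ezr, Mrtfa, Mrtfb and Amotl2). With total counts in place of TMM, 13 genes were called higher instead of 7, and the log2 fold changes of Actn4 (0.13), Myh9 (0.15) and Ezr (0.11) changed sign, since that scaling raised all values by a median of 0.21. The Tpm2/Tpm3 ratio difference changed sign to -0.030 without P3FI-90 replicate 3 and was at most 0.24 with another library left out. Counts of calls over the 45 genes, over all genes and over the 6 further lists pooled stayed within 1.5 times their value in 95 of 96 cases, the exception being the 13. The counts of the single lists did so in 188 of 192. The 4 exceptions were, with total counts, 5 SRF genes lower instead of 8, 14 Hippo genes higher instead of 9 and 8 YAP/TEAD targets higher instead of 5, and, after removal of the length and GC trend, 5 crosslinkers and myosins higher instead of 8. The pooled lists turned from 54 lower and 37 higher to 42 and 50 with total counts. That scaling also moved the log2 fold changes of Flnc (-0.25), Tpm4 (-0.12), Cnn2 (-0.33), Arpc2 (-0.39), Srf (0.54), Tead4 (-0.34), Amotl2 (0.32), Ajuba (-0.20) and Axl (-0.34) by over 1.5 times with no change of call, and so did removal of the length and GC trend for Flnc (-0.73), Myl6 (-0.14), Myl12a (-0.13), Srf (0.56), Wwtr1 (0.34), Tead1 (0.19), Lats1 (0.63) and Ajuba (-0.26). Removal of that trend also changed the sign of Mrtfb (-0.099) and raised Actn1 (0.060) and Mrtfa (0.11), which all stayed uncalled. Leaving out 1 library at a time gave 6 to 7 genes called higher and 30 to 32 called lower. No shared effect of the replicate number was seen. Equally numbered libraries deviated from their group means with correlations of only -0.049, -0.031 and -0.027. Of the 3 libraries of either group, 0 correlated best with the library of its own number. These values cannot exclude that equally numbered libraries were handled together, on which the labels are silent. The replicate block gave 7 genes higher and 30 lower, the call lost being that of Actn4 (-0.081, adjusted p = 0.0678). Depth limits Acta2, Myl9 and Cnn1, with at most 24 counts in a library. The Acta2 values under leave-one-out ranged from 0.78 to 2.06.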
